A study of Mus musculus with 5 samples.

Results

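The messenger RNAs of the WAVE complex and of its effector, the Arp2/3 complex, were followed in RNA that came down with CYFIP1 from mouse hippocampus. The members are 9 genes, namely Wasf1, Wasf2, Abi2 and Brk1 of the WAVE complex, Nyap2, and Actr3, Arpc2, Arpc4 and Arpc5 of Arp2/3. They were chosen by name, and a region was counted for a gene that the lists' annotation gives it as lying inside, across the start or end of, or over the whole of. The 9 are among 4727 genes with such a region. Cyfip1 itself was left out, being the gene of the tagged protein. Lysates of hippocampus from C57BL/6 mice were incubated with an antibody to the HA tag or with control IgG, and the captured RNA was sequenced. The groups are anti-HA on knock-in tissue (2 libraries, numbered 1 and 2), control IgG on knock-in tissue (2 libraries, numbered 1 and 2) and anti-HA on wild-type tissue (1 library). The labels say neither how the tag was introduced nor the age of the animals, nor whether a number marks 1 animal or a pool, so the spread between libraries, and any p-value built on it, may be technical.

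CYFIP1 is a subunit of the WAVE regulatory complex, in which it sits with a NCKAP1, an ABI, a WAVE (Wasf) and the small BRK1 subunit. Active Rac binds the CYFIP subunit and releases the C-terminal end of the WAVE protein, which then switches on the Arp2/3 complex to grow branched actin filaments. In neurons this machinery shapes dendritic spines, and CYFIP1 is also known as a partner of the RNA-binding protein FMRP and the cap-binding protein eIF4E in repressing translation. NYAP2 is a neuronal adaptor that links phosphoinositide 3-kinase to the WAVE complex. In bulk tissue, fewer cells of a type and less RNA per cell cannot be told apart.

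The data are 4 lists of called regions, each setting 1 HA library against 1 control: knock-in 1 over IgG, knock-in 2 over IgG, and knock-in 1 and knock-in 2 over the same wild-type HA library. Each region carries the reads of its 2 libraries. The lists hold 4191, 1920, 5355 and 5362 regions in that order, with 64055 to 166760 HA reads inside them; reads elsewhere, and so the depth of each library, are unknown. Cyfip1 mRNA checked the labels, with 6101 HA and 67 IgG reads in knock-in 1 and 6186 and 115 in knock-in 2. In the lists over wild type, the wild-type HA library held 431 reads beside the 6101 of knock-in 1 and 416 beside the 6186 of knock-in 2. Regions were very unevenly spread over chromosomes: in knock-in 2 over IgG there were 0 on chromosome 1, 75 on chromosome 4, 4 on chromosome 6 and 20 on chromosome 10. Of cell type markers, 4 of 9 for pyramidal and granule neurons had a region in at least 1 list, as had 2 of 6 for astrocytes, 2 of 6 for oligodendrocytes, 0 of 6 for interneurons, 0 of 6 for microglia, 0 of 7 for endothelium and blood and 0 of 3 for choroid plexus. The neuronal marker Camk2a had none, and the part of cell makeup in the results was not tested. With regions so unevenly spread over chromosomes, a marker without a region is not shown to be absent from the captured RNA. Over 96 windows with identical coordinates in both IgG lists the HA libraries differed by no more than counting error (chi-square p = 0.583), and over 118 windows in the wild-type lists they differed (chi-square p = 0.000125), though without Malat1 by no more than counting error (p = 0.741). The IgG libraries differed over 58 windows (chi-square p = 4.92e-15). The HA libraries were kept as 2 samples, and the result that rests on this is also given with them as 1.

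The sequences under the Wasf1 and Wasf2 regions carry what these genes share. The principal transcript of each gene has 9 exons. The window with the most reads lay on exon 8 in Wasf1 and spanned exons 8 and 9 in Wasf2. In knock-in 2 over IgG the only Wasf2 region lay on exon 6. The Wasf2 window of knock-in 1 over exons 8 and 9 holds 667 coding and 3879 UTR bases. Where its reads lie within it is not known, so they may not lie on the stretch printed below. Exon 8 encodes the proline-rich stretch of a WAVE protein, and exon 9 the C-terminal end. Stretches of 300 bases inside the called exon 8 windows are printed 5′ to 3′ on the plus strand with proline codons (CCN) in capitals, because the windows are dense in them. The Wasf1 stretch is chr10:40936243-40936542 and the Wasf2 stretch is chr4:133194469-133194768 on GRCm38 (mm10), read from GENCODE M21 transcripts.
Wasf1 exon 8: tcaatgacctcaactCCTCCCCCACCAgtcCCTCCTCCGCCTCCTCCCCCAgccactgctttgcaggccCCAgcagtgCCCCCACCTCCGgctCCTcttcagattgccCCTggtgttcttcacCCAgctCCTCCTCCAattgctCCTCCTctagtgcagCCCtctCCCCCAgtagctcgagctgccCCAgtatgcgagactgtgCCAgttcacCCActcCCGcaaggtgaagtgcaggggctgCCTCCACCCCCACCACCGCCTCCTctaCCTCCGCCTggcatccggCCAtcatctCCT
Wasf2 exon 8: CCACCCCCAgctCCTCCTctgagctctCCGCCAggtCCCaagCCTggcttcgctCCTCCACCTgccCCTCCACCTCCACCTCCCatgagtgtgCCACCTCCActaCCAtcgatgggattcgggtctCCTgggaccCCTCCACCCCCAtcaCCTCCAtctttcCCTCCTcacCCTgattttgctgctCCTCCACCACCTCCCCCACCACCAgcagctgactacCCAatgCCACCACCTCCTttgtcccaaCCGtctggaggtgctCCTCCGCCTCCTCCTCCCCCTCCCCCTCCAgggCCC
The called part of Wasf1 exon 8 held 70 proline codons among 199 (35.2%), against 8.06% of the codons elsewhere in the coding sequence. In Wasf2 it held 72 of 170 (42.4%), against 7.34% elsewhere. The richest run of 100 codons held 44 proline codons in Wasf1, a number reached by 42 of 20975 genes (0.2002%), and 57 in Wasf2, reached by 6 genes; the median gene reached 9. G and C made up 61.1% and 62.7% of the called exon 8 bases, against 53.0% and 54.7% of the whole coding sequences.

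The coding parts of exon 9 are printed in the same way, at chr10:40937646-40937800 and chr4:133195717-133195871, with bases that differ between the genes or face a gap in capitals. They show how alike Wasf1 and Wasf2 are over these bases. Whether reads of these genes can be told apart was not tested.
Wasf1 exon 9: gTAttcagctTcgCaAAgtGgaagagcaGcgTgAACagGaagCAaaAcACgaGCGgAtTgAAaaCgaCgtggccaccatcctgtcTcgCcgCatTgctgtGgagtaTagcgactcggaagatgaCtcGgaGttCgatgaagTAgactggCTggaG
Wasf2 exon 9: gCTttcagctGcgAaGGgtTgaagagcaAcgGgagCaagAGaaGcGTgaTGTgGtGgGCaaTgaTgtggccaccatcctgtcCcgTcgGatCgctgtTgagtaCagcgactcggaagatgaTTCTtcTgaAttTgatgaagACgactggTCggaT
In a global alignment 113 of the 155 bases (72.9%) were the same. The sources used here do not say how reads that match several places were treated.

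The comparison with IgG asked which RNAs the anti-HA antibody brought down beyond nonspecific capture, and the comparison with wild type which of them needed the tag. A fold below takes the reads on all regions of a gene in a list, HA divided by control, and divides this ratio by the median ratio of the list's regions with at least 20 reads, since library totals are unknown. That median was 2.89 and 0.947 over IgG (knock-in 1 and 2) and 1.41 and 1.75 over wild type. With the ratio of all reads in a list as the divisor, log2 folds against IgG would move by -0.42 and -1.09 and those against wild type by 0.73 and 0.93; a gene close to 1-fold can thus fall on either side. Intervals are 95% exact counting intervals (Clopper-Pearson) for 1 pair of libraries. Because PCR copies of a molecule are counted separately, they describe counting error alone, as does the floor used where a control held 0 reads.

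Regions lay on 7, 2, 9 and 9 of the 9 genes in the 4 lists, 47 regions in all (12, 3, 14 and 18), and Wasf1 and Wasf2 alone had regions in every list. With at least 20 reads in the list, 1 of 4 members reached 2-fold in knock-in 1 over IgG, against 9.66% of all genes with as many reads. It was 1 of 1 in knock-in 2 over IgG (8.76% of all genes), 2 of 7 in knock-in 1 over wild type (13.4%) and 3 of 8 in knock-in 2 over wild type (11.6%). Nyap2 passed the limit of 20 reads over wild type through its HA reads alone (27 and 83, against 1), so it had to differ; without it the counts are 1 of 6 and 2 of 7. The members counted were Wasf1, Wasf2 and Nyap2 only. In knock-in 1 over IgG Wasf2 lay just above the 2-fold limit (2.00, interval 0.767 to 6.63) and Wasf1 just below it (1.99). With 5 IgG reads there, Wasf2 could reach 20 reads only at a ratio above the list median, so it had to exceed 1-fold. In knock-in 2 over IgG Wasf1 was counted on 2 windows, and its exon 8 window alone was 1.82-fold. In each list 0 members lay at 0.5-fold or less, against 20.1%, 18.9%, 4.22% and 4.59% of all genes. The median member fold was 1.38, 2.18, 1.73 and 1.45, beside 0.839, 0.822, 1.15 and 1.10 over all genes with at least 20 reads. Nyap2 is included in the medians of 1.73 and 1.45. Both wild-type lists use the same control library, so the values over wild type are not independent of each other.

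**Figure D1:**
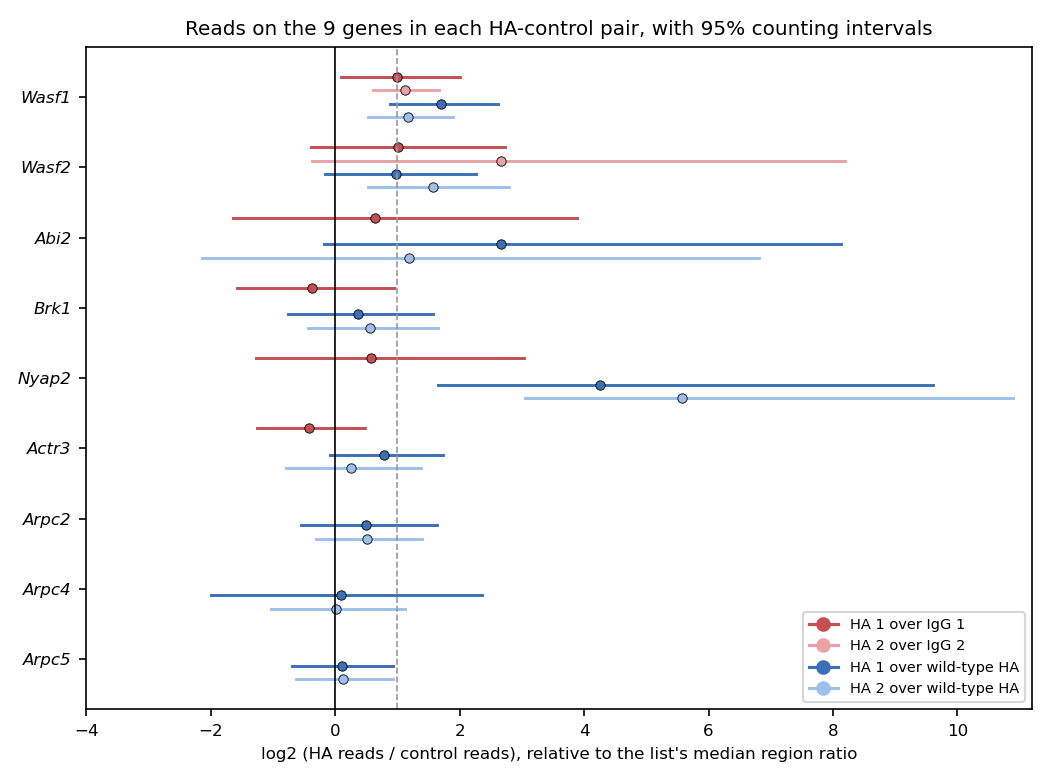
Log2 ratio of HA to control reads for each of the 9 genes, scaled by the list's median region ratio (x axis); points are single pairs of libraries, bars their 95% counting intervals, colours the 4 lists, and the dashed line marks 2-fold. Wasf1 lies above 0 in all 4 lists with intervals that exclude 0, the Arp2/3 genes have intervals that include 0, and the bars of Abi2, Nyap2 and of Wasf2 in knock-in 2 over IgG are long because the control held 1 to 3 reads.

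Wasf1 encodes WAVE1, the WAVE protein enriched in brain. Its regions held 69 HA and 12 IgG reads in knock-in 1 and 95 and 46 in knock-in 2. Against wild-type HA they held 69 and 15 reads in knock-in 1 and 95 and 24 in knock-in 2. The HA library was the higher in each of these 4 pairs. The fold was 1.99 in knock-in 1 (interval 1.07 to 4.03) and 2.18 in knock-in 2 (interval 1.52 to 3.17) over IgG, a mean log2 fold of 1.06 ± 0.095 (SD, n = 2). Over wild type it was 3.26 (interval 1.84 to 6.13) and 2.26 (interval 1.43 to 3.70), a mean log2 fold of 1.44 ± 0.37 (SD, n = 2). The Wasf1 regions summed to 0.63 kb in knock-in 1 and 1.05 kb in knock-in 2. The folds of the 2 knock-ins, and so these means and SDs, thus do not cover the same sequence.

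A Wasf1 window at chr10:40936141-40936770, which covers 598 coding bases of exon 8, was listed with the same coordinates in all 4 lists. It held 69 and 57 reads in HA libraries 1 and 2, 12 and 33 in IgG libraries 1 and 2, and 15 in wild-type HA. The lowest HA library thus lay above the highest control, on reads that are not scaled for library size. A further window, chr10:40937611-40938030, was listed for knock-in 2 only, covers 155 coding and 230 3′ UTR bases of exon 9 and held 38 HA, 13 IgG and 9 wild-type reads. Both windows lie at the 3′ end of the gene, and the 3′ UTR beyond the second window had no listed region. In knock-in 2 the fold of the exon 8 window alone was 1.82 over IgG (interval 1.17 to 2.89) and 2.17 over wild type (interval 1.21 to 4.13). The fold of the exon 9 window was 3.09 over IgG (interval 1.61 to 6.32) and 2.41 over wild type (interval 1.15 to 5.67).

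**Figure D2:**
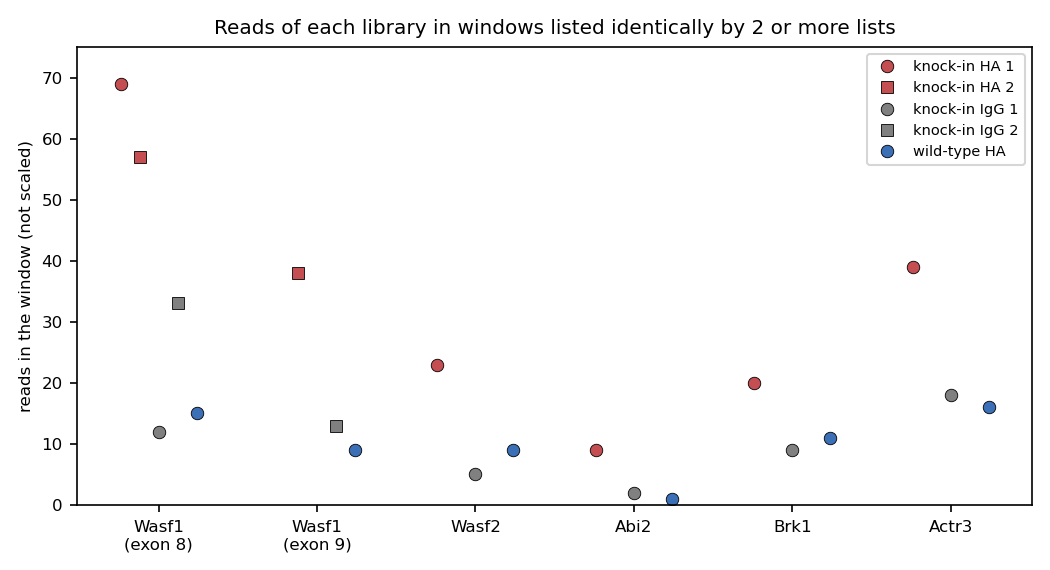
Reads of each library, not scaled for library size, in the member windows that 2 or more lists give with the same coordinates and that hold at least 9 HA reads; each point is 1 library. In the Wasf1 exon 8 window the HA libraries (69 and 57 reads) lie above the IgG libraries (12 and 33) and wild-type HA (15); the other windows were listed for only 1 of the knock-ins.

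The exon 8 window is the only member window that could be tested across libraries. Of 80 windows with identical coordinates in both IgG lists and at least 20 reads in each, 74 (92.5%) were higher in HA and 0 were lower (limma with Benjamini-Hochberg adjustment; 74 at an unadjusted p under 0.05). The Wasf1 window was among the 74, 0.90 higher on the log2 scale (SE 0.30; limma adjusted p = 0.0272), but it ranked 75 of 80 from the highest and the median window had 3.21. The call was lost with the replicate number as a block (limma adjusted p = 0.0803), without HA library 1 (0.78, limma adjusted p = 0.125), without HA library 2 (1.02, limma adjusted p = 0.0844) and with the HA libraries counted as 1 sample (limma adjusted p = 0.102). With the ratio of all reads as the scale the difference was 0.15 (limma adjusted p = 0.663). All windows had been called by the authors for their HA reads, so the counts do not test binding anew.

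Over wild type, 8 of 68 identical windows (11.8%) were higher in knock-in HA and 24 (35.3%) lower by limma, in a fit where the lone wild-type library is assumed to vary like the knock-in libraries. The Wasf1 window was among the 8, 1.38 higher on the log2 scale (SE 0.36; limma adjusted p = 0.0193), higher in 2 of 2 HA libraries, and it ranked 7 of 68 where the median was -0.26. With the ratio of all reads as the scale it was 2.20 (limma adjusted p = 0.0112). Its SE and p rest on the spread between the 2 HA libraries, which was within counting error without Malat1, and hold no variation between wild-type samples, so they do not test the difference between genotypes. With the HA libraries as 1 sample this comparison allows no test.

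Summed over each gene, 26 of the 392 that held 20 reads or more in each IgG list (6.63%) were higher in HA and 73 (18.6%) lower, by limma with the replicate number as a block. Wasf1 was among the 26 1.03 higher on the log2 scale (SE 0.17; limma adjusted p = 0.03996), higher in 2 of 2 pairs, and ranked 32 of 392. The call was lost without the block (limma adjusted p = 0.1002), with the ratio of all reads as the scale (0.28, limma adjusted p = 0.463), without the limit on reads (limma adjusted p = 0.183) and with a pseudocount of 1 in place of 0.5 (limma adjusted p = 0.0621). The labels tie the replicate number to nothing beyond the knock-in. Whether libraries of the same number deviate together could not be judged, since the HA libraries differed by no more than counting error. Wasf1 was the only member among the 392; Wasf2 had 7 reads in knock-in 2 over IgG and entered only without the limit on reads, at a log2 difference of 1.54 (limma adjusted p = 0.1997).

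The direction of Wasf1 over IgG depended on which regions set the scale. Chromosome 10 held 10 regions in knock-in 1 over IgG, and among them the Wasf1 window had the lowest ratio; the others lay on Nhsl1, Agap2 or no gene. The Wasf1 windows ranked 9 and 18 of 20 in knock-in 2 over IgG, 8 of 10 in knock-in 1 over wild type and 9 and 10 of 22 in knock-in 2 over wild type. The median ratio of regions on chromosomes with under 500 regions in the list was 12.6 and 11.2 over IgG, against 2.56 and 0.744 on the remaining chromosomes. Scaled by the median of its own class of chromosomes, the Wasf1 fold over IgG was 0.455 and 0.185, and the log2 difference of the exon 8 window was -1.94 (limma adjusted p = 0.178). Over wild type the medians of the classes were closer, 1.87 and 1.78 against 1.41 and 1.75, and the window's difference was 1.16 (limma adjusted p = 0.0524).

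Wasf2 encodes WAVE2, the more widely expressed WAVE protein. Its regions held 29 HA and 5 IgG reads in knock-in 1 and 6 and 1 in knock-in 2. Over wild type they held 25 and 9 reads in knock-in 1 and 47 and 9 in knock-in 2. HA was again the higher library in each pair, but on fewer reads than for Wasf1. The fold was 2.00 (interval 0.767 to 6.63) and 6.34 (interval 0.769 to 292) over IgG, and 1.97 (interval 0.888 to 4.79) and 2.98 (interval 1.45 to 6.93) over wild type. The interval excluded 1 in knock-in 2 over wild type only. By class of chromosomes the fold in knock-in 2 over IgG was 0.537, on 6 HA reads and 1 IgG read, and that in knock-in 1 was 2.27. Most of these reads lay in a window at chr4:133194251-133199750 that spans exons 8 and 9 with 667 coding and 3879 UTR bases and also holds the microRNA gene Mir7017. It held 23 HA, 5 IgG and 9 wild-type reads for knock-in 1, and a window shorter by 1 bin of 250 bp held 39 HA and 9 wild-type reads for knock-in 2. Small regions with 2 to 6 HA reads and 0 or 1 control read lay on exons 2, 4, 6 and 7.

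**Figure D3:**
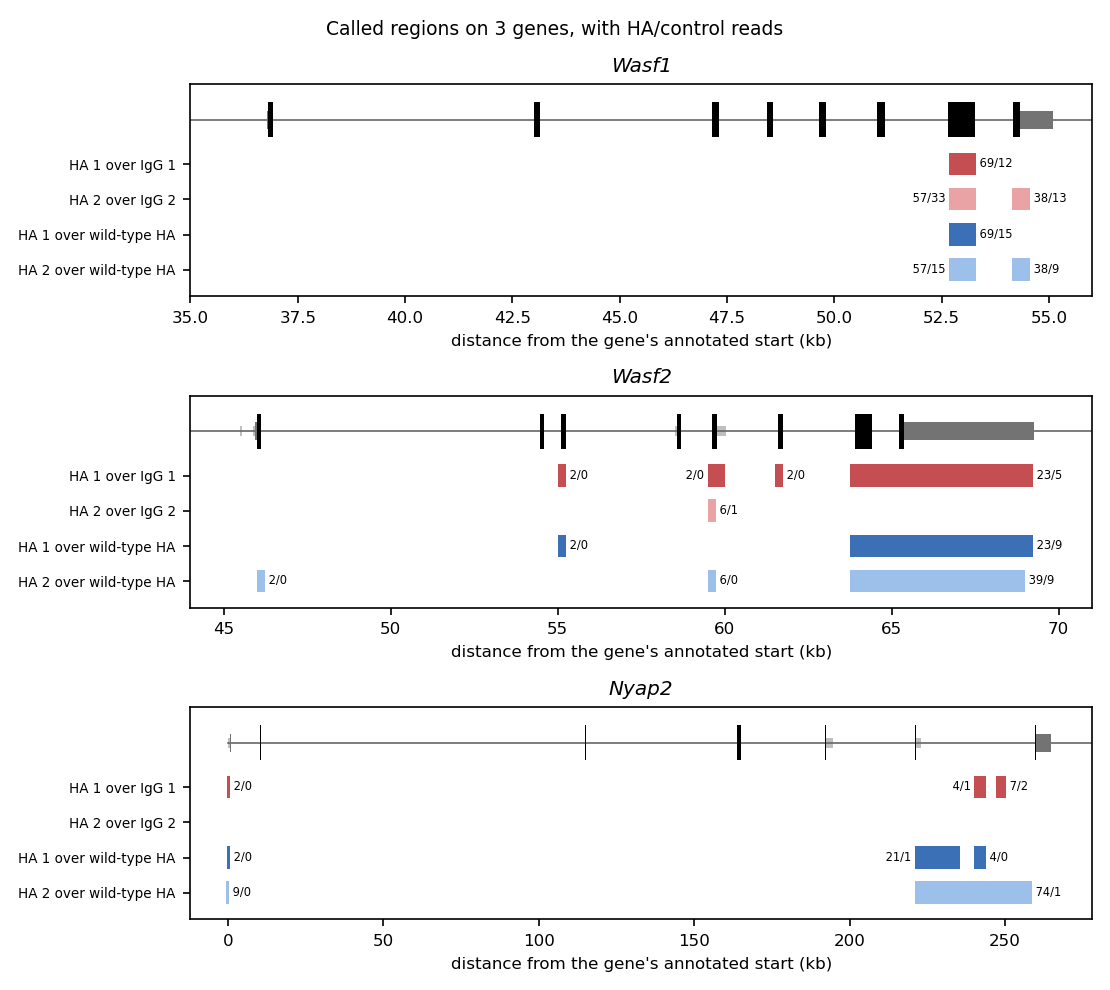
Called regions on Wasf1, Wasf2 and Nyap2 by distance from the annotated start of the gene in kb (x axis), 1 row per list, labelled with HA/control reads; tall black boxes are coding exons and grey boxes UTRs of the principal transcript, pale boxes exons of other transcripts. In knock-in 1 over IgG the region with the most reads lies on exon 8 of Wasf1 (69/12) and spans exons 8 and 9 of Wasf2 (23/5). Those on Nyap2 (21/1 and 74/1 over wild type) lie in the last intron.

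Abi2 and Brk1 encode the remaining WAVE subunits with a region, an ABI subunit and the small BRK1 subunit. Abi2 held 9 HA and 2 IgG reads in knock-in 1, and over wild type 9 and 1 in knock-in 1 and 4 and 1 in knock-in 2. These numbers are too small to place it, with intervals from 0.226 to 113 over wild type in knock-in 2 and folds of 1.55, 6.37 and 2.29. The knock-in 1 window, chr1:60436871-60440765, touches exon 3 of 9, and the knock-in 2 window touches exon 5. Brk1 held 20 HA and 9 IgG reads in knock-in 1, and over wild type 20 and 11 in knock-in 1 and 31 and 12 in knock-in 2. Its folds were 0.768 (interval 0.334 to 1.91) over IgG and 1.29 (0.588 to 2.97) and 1.48 (0.737 to 3.16) over wild type, all with intervals that include 1. The Brk1 windows of knock-in 1, at chr6:113608601-113618400, overlap the gene models Gm44199 and Gm44200, so their reads may belong in part to these.

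Nyap2 had the highest folds over wild type among the 9 genes, on a control of 1 read. In knock-in 1 its regions carried 27 HA reads against 1 from wild type (19.1-fold, interval 3.15 to 783). In knock-in 2 they carried 83 against 1 (47.4-fold, interval 8.28 to 1896). Against IgG, knock-in 1 gave 13 HA and 3 IgG reads (1.497-fold, interval 0.411 to 8.19), and knock-in 2 had no listed region on the gene. The lower bounds over wild type were above 2-fold in both knock-ins, whereas the interval over IgG included 1. These bounds rest on 1 read of the same wild-type library. The gene passed the limit of 20 reads through its HA reads alone, so they do not test a difference. Of its 8 regions, 0 touched an exon of the principal transcript, which has 7 exons. The large windows, chr1:81298081-81312430 with 21 HA reads and 1 wild-type read in knock-in 1 and chr1:81298081-81335595 with 74 and 1 in knock-in 2, lie in the last intron and share 2016 bases with exons of other transcripts of the gene. The start of the gene carried a window with 2 HA and 0 wild-type reads in knock-in 1 and a larger one with 9 and 0 in knock-in 2 (at least 1.71-fold, with a floor of 3 counts for the region).

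The Arp2/3 members had folds from 0.749 to 1.73, with intervals that include 1. Actr3 encodes the actin-related protein ARP3, a core subunit that resembles actin. It held 39 HA and 18 IgG reads in knock-in 1 (0.749-fold, interval 0.418 to 1.39), and over wild type 39 and 16 in knock-in 1 (1.73-fold, interval 0.943 to 3.31) and 25 and 12 in knock-in 2 (1.19-fold, interval 0.576 to 2.60). All 3 intervals of Actr3 include 1. Its knock-in 1 window, chr1:125393376-125411415, spans exons 4 to 12 of 12 with 1029 coding bases.

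Arpc2, a scaffold subunit of the complex, had no region over IgG. Over wild type it held 24 HA and 12 wild-type reads in knock-in 1 (1.42-fold, interval 0.681 to 3.11) and 45 and 18 in knock-in 2 (1.43-fold, interval 0.811 to 2.62). Arpc5, a further subunit, had none over IgG either and held 35 and 23 reads (1.08-fold, interval 0.619 to 1.91) and 44 and 23 (1.09-fold, interval 0.646 to 1.90) over wild type. The knock-ins agree closely in fold for these genes, which share 1 wild-type library, and the intervals include 1. The Arpc5 windows cover all 4 exons and overlap Rgl1. Arpc4 held 6 HA and 4 wild-type reads in knock-in 1 (1.06-fold, interval 0.252 to 5.12) and 23 and 13 in knock-in 2 (1.01-fold, interval 0.491 to 2.17). Against IgG, knock-in 1 gave 2 HA and 0 IgG reads, too few for a fold, and some of its windows overlap Ttll3. For these genes a difference from the list median was not detectable at this depth.

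**Figure D4:**
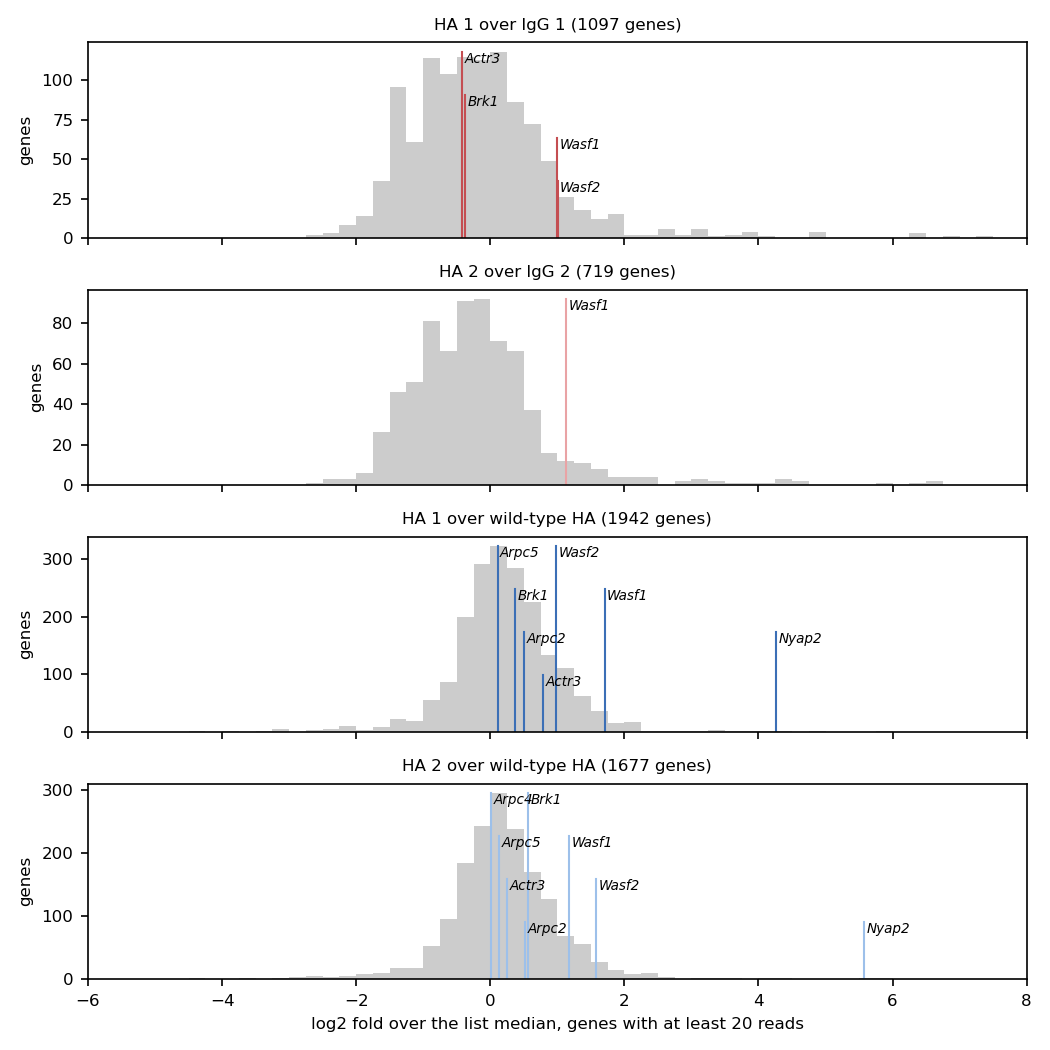
Number of genes (y axis) by log2 fold over the list median (x axis) for all genes with at least 20 reads in each list, with the member genes that have as many reads marked by lines and names. Nyap2 over wild type (19.1-fold and 47.4-fold, on a control of 1 read) lies beyond the bulk of genes, and Wasf1 lies in the upper part in all 4 lists. The marked Arp2/3 genes lie between percentiles 40.4 and 80.9, the highest being Actr3 in knock-in 1 over wild type.

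Per kb of called region, Wasf1 had the highest level of HA reads, 110 per kb in knock-in 1 and 90.5 in knock-in 2 over wild type. Wasf2 followed with 4.35 and 8.17 HA reads per kb, then Arpc4 with 7.50 and 2.56, Arpc5 with 3.56 and 4.57, and Actr3 with 2.16 and 5.30. Abi2 had 2.31 and 3.25, Brk1 2.04 and 3.37, Arpc2 2.05 and 2.61 and Nyap2 1.46 and 2.17. Below Wasf1 the ranges of neighbours in this order overlapped. The called regions of Wasf1 were short and exonic, 0.63 kb in knock-in 1, while those of the other genes reached 37.5 kb and took in introns, so this level depends on where regions were called. Of the 47 regions 44 touched an exon of any transcript, 10 of 12, 3 of 3, 13 of 14 and 18 of 18 by list, beside 87.6%, 88.0%, 89.2% and 89.2% of all regions on genes.

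In the authors' deposited table, 39 of the 47 member regions had an adjusted p below 0.05 (9 of 12, 3 of 3, 9 of 14 and 18 of 18), beside 64.6%, 87.3%, 82.3% and 78.8% of all regions in the lists. An empirical false discovery rate below 10% was given to 16 of the 47 in the authors' deposited table (0 of 12, 2 of 3, 3 of 14 and 11 of 18), beside 4.25%, 71.8%, 48.2% and 48.0% of all regions. In the authors' deposited table the adjusted p of the Wasf1 exon 8 window was 1.83e-146 in knock-in 1 and 0.000607 in knock-in 2 over IgG, and 1.38e-137 and 2.58e-96 over wild type. Its empirical false discovery rate over IgG in the authors' deposited table was 0.1 in knock-in 1, which is not below the limit, and 0.0588 in knock-in 2. The sources used here do not say how these values were adjusted.

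Most of the pathway had no region at all. Of the 10 WAVE genes considered, Cyfip2, Nckap1, Nckap1l, Abi1, Abi3 and Wasf3 had none in any list, and of the 10 Arp2/3 genes Actr2, Actr3b, Arpc1a, Arpc1b, Arpc3 and Arpc5l had none. Nyap1 and Myo16, the other genes of the NYAP family, had none either. This absence followed the chromosome. Of 84 pathway genes 33 had a region, and 31 of these lay among the 34 genes on a chromosome with at least 500 regions in some list, against 2 (Wasf1 and Pak3) of the 50 on the remaining chromosomes. Of the genes on chromosomes with many regions only Nckap1l, Rac2 and Gmfg had none. Likewise Abi2, Nyap2, Actr3, Arpc2 and Arpc5 lie on chromosome 1, where knock-in 2 over IgG listed 0 regions. A gene without a region is therefore not shown to be absent from the captured RNA.

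**Figure D5:**
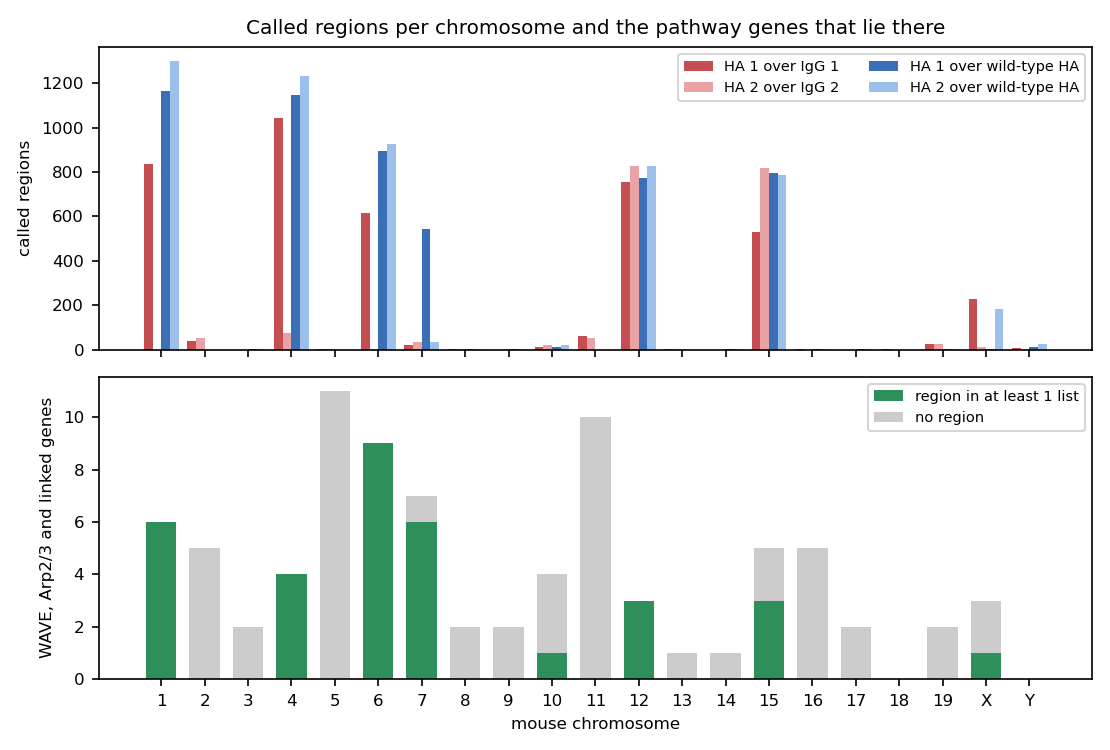
Called regions per mouse chromosome in each list (upper panel, bars by list) and number of WAVE, NYAP, Arp2/3 and linked pathway genes per chromosome with (green) and without (grey) a region in at least 1 list (lower panel). Of the 33 genes with a region 31 lie on chromosomes with at least 500 regions in some list; the exceptions are Wasf1 on chromosome 10 and Pak3 on X.

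Of 14 genes of other factors that switch on Arp2/3, or of proteins in complex with them, 3, 2, 6 and 4 had a region in the 4 lists. Those with at least 20 reads numbered 1, 1, 4 and 2, and 0 reached 2-fold. The shares of all genes were 9.66%, 8.76%, 13.4% and 11.6%, and these numbers are too small to set against them. The one with the most HA reads was Wipf3, of the family that binds N-WASP, which was 0.669-fold in knock-in 2 against IgG, and against wild type 0.966-fold in knock-in 1 and 0.885-fold in knock-in 2. Cttn, the gene of cortactin, was 0.734-fold, Washc2, of the endosomal WASH complex, 0.681-fold, and Whamm 0.612-fold (interval 0.421 to 0.885) in knock-in 1 over wild type. The medians over wild type of the 4 and 2 with at least 20 reads were 0.707 and 0.754, beside 1.15 and 1.10 for all genes. Of 10 inhibitors and debranching factors 2, 1, 4 and 2 had a region. Only 0, 1, 1 and 0 of these held at least 20 reads, and 0 reached 2-fold, too few to set against the same shares. Pick1, which inhibits Arp2/3, was 0.813-fold in knock-in 2 over IgG. Coro1a, a coronin, was 1.48-fold in knock-in 1 over wild type, and Coro2a had fewer than 10 HA reads in each list.

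Of 22 genes of Rac signalling to WAVE, 8, 2, 9 and 8 had a region. In knock-in 1 over IgG 1 of 4 with at least 20 reads reached 2-fold (9.66% of all genes) and 1 lay at 0.5-fold or less (20.1%). In the other lists 0 of 2, 0 of 6 and 0 of 7 reached 2-fold (8.76%, 13.4% and 11.6% of all genes). There 0 lay at 0.5-fold or less (18.9%, 4.22% and 4.59%). Trio, an exchange factor for Rac, held 82 HA and 9 IgG reads in knock-in 1 (3.15-fold, interval 1.58 to 7.13) and 215 and 213 in knock-in 2 (1.07-fold, interval 0.878 to 1.29), with intervals that do not overlap. Its regions summed to 28.8 kb and 64.7 kb in these lists, so the folds do not cover the same sequence. Dock4, a Rac activator as well, held 71 HA and 55 IgG reads in knock-in 1 (0.446-fold) and 76 and 131 in knock-in 2 (0.613-fold). Both intervals lay below 1 on the scale of the list median. Dock4 lies on chromosome 12, whose class of chromosomes had lower medians over IgG than the whole lists (2.56 and 0.744 against 2.89 and 0.947). Its folds were not formed on that scale, where they would be higher. Over wild type Dock4 was 0.986-fold and 0.944-fold. Srgap3, which stimulates GTP hydrolysis by Rac, was 1.18-fold and 0.812-fold over wild type. Of 15 genes of actin monomers and turnover 2, 1, 4 and 3 had a region. The capping protein genes Capza2 (1.42-fold and 1.18-fold) and Capzb (1.77-fold and 1.89-fold) over wild type had intervals that include 1, and Cfl2, a cofilin, was 0.493-fold in knock-in 2 over IgG on 7 HA and 15 IgG reads.

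Of 329 genes with at least 20 reads in all 4 lists other than Wasf1, those whose 4 log2 folds lay closest to those of Wasf1 by Euclidean distance were Atf7, Gm28047, Spryd3, Tns2 and Lmbrd2. Their distances ran from 0.876 to 1.12, and all 5 lie on chromosome 15, where each list holds at least 500 regions. In knock-in 2 over IgG 828 of 1920 regions lay on chromosome 12 and 817 on chromosome 15, which limits where such genes can lie. Atf7, the closest, had folds of 1.55 and 1.69 against IgG and of 4.25 and 3.43 against wild type.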

How the data were processed

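Anti-HA and control IgG precipitates of mouse hippocampus were sequenced in 5 libraries. The submitters' processing notes name TopHat and TopHat2 and the builds GRCm38 and mm10. Per the file headers, rtracklayer 1.28.9 wrote the lists; the caller of the regions and any use of strand in counting are not given in the sources used here. The values used are of an other kind than a count table: the deposited lists give unscaled reads of the HA and control libraries as attributes of each region, beside the authors' p-values. Windows are whole bins (205 bp on chromosome 1, 250 on 4, 200 on 6, 210 on 10).

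Reads were summed per gene and divided by the median region ratio; with 0 control reads the floor was 3 counts per gene and list (or per region, where a region is given), and no fold was given where HA also held 3 or fewer. Identical windows and genes in both IgG lists were tested with limma 3.58.1 (R 4.3.3) on log2(reads + 0.5), with Benjamini-Hochberg adjustment at 0.05, after the fit was tested on simulated counts; in the wild-type lists 189 of 193 identical windows with equal wild-type reads were kept. The gene sums were blocked by replicate number because each list pairs libraries of the same number, though the labels say no more of these numbers. Exons and codons come from GENCODE M21, read with Python 3.11.15, scipy 1.17.1 and biopython 1.88. Alternatives were other scales, filters, pseudocounts and blocks and leaving out libraries; the scale by class of chromosomes for windows and the HA libraries as 1 sample were added after seeing the data. Named were the 9 members, all genes of the WAVE, NYAP and Arp2/3 lists, the 3 genes with most HA reads of each other list (ties kept), genes overlapping a member and the 5 genes most like Wasf1; Pak3, Rac2 and Gmfg were named after their values were seen. The members and lists were chosen with earlier results of these data known. The input RNA that the protocol mentions was not analysed here.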

Additional observations from a re-analysis of the deposited data

How the results depend on the processing

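Of 26 member folds, 26 kept their side of 1 with the ratio of all reads as the scale. The numbers were 23 with the median of regions with at least 10 reads and 23 with the median of the class of chromosomes. On the last, the folds that crossed 1 were all over IgG. They were Wasf1 in knock-in 1 (to 0.455) and knock-in 2 (to 0.185), and Wasf2 in knock-in 2 (to 0.537). Member folds of at least 2 over the 4 lists numbered 7, and 13 with the ratio of all reads (0, 0, 6 and 7 by list, where 5.83%, 3.62%, 45.1% and 54.3% of all genes reached it); folds of 0.5 or less numbered 0, and 2 by class of chromosomes. With only regions with an authors' adjusted p below 0.05, wholly inside the gene or on an exon, 21 of 21, 21 of 22 and 25 of 25 folds that could be formed kept their side; Arpc2 in knock-in 1 over wild type went from 1.42 to 0.708 with regions wholly inside the gene. Windows higher over IgG numbered 74 and with the replicate block 73; they numbered 4 by class of chromosomes and 49 to 78 with 1 library left out (49 without HA library 2), and windows lower numbered 0, or 1 without the filter on reads. For the Wasf1 window over IgG (0.90) the call was lost with the replicate block (0.90, limma adjusted p = 0.0803), the ratio of all reads (0.15) and the HA libraries as 1 sample (0.90), the range with 1 library left out was 0.78 to 1.02, and by class of chromosomes it reversed to -1.94. Over wild type, 8 windows were higher and 24 lower; these became 29 and 15 with the ratio of all reads, 34 higher without the filter and 15 lower by class of chromosomes, where the Wasf1 window (1.16) lost its call. Its value was 1.08 without HA library 1 and 1.67 without HA library 2, with no test. Of the gene sums over IgG, 26 were higher and 73 lower in HA; lower were 17 with no replicate block, 276 with the ratio of all reads, 3 by class of chromosomes (7 higher), 42 with a pseudocount of 1, and 0 without the filter on reads (0 higher; 196 at an unadjusted p under 0.05). The Wasf1 sum (1.03) lost its call with no replicate block (1.03), with the ratio of all reads (0.28), without the filter (1.03) and with a pseudocount of 1 (1.00), and reversed to -1.81 by class of chromosomes (limma adjusted p = 0.0521); it was 0.94 in knock-in 1 and 1.12 in knock-in 2. Over 80 windows, the differences within the HA pair and within the IgG pair had a correlation of -0.042. With HA libraries that differed by no more than counting error, this value cannot show whether libraries of the same number deviate together. For these changes the cause was not tested, beyond the fewer libraries or other genes that an alternative holds. Depth limits Abi2, Arpc4, Nyap2 and Wasf2 most, where the control held 0 to 5 reads in at least 1 list.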
